A study of Homo sapiens with 6 samples.

Results

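Transcripts of the Wnt pathway were compared between 2 human colon cancer cell lines, HCT116 and E1, on Affymetrix arrays, with 3 arrays per line. HCT116 is an established line that the labels call poorly metastatic. E1 is called metastatic and derived in vivo. The cell line field of the E1 samples reads HCT116 too. No treatment is given for either line, and the labels do not say whether E1 is a single clone. The genes were chosen by symbol: the WNT ligands, the FZD receptors, the DKK and SFRP antagonists, the DVL and TLE families, and single named receptors, transducers, transcription factors and targets, with the probe set of highest mean log2 value standing for each gene. The rule found 51 genes of 11963 in all, with 89 probe sets of 19065. These were 13 ligands, 12 receptors, 7 secreted antagonists, 7 cytoplasmic transducers, 9 nuclear factors and 3 target genes. AXIN2, TCF7 and PORCN were named by the rule but had no probe set with that symbol in the annotation used, and were not analysed here. WNT3 and FZD8 had only probe sets with several symbols and were left out by the rule.

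Wnt proteins are secreted lipid-modified ligands that bind a Frizzled receptor and an LRP5 or LRP6 co-receptor. Without ligand, a complex of AXIN, APC and the kinase GSK3B marks beta-catenin, the product of CTNNB1, for degradation. With ligand, Dishevelled proteins disable that complex, and beta-catenin enters the nucleus, binds TCF or LEF factors and displaces TLE corepressors from them. The pathway maintains stem cells at the base of colon crypts and is active in most colon cancers. HCT116 is known to carry an activating mutation of CTNNB1 with intact APC.

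Values are linear probe set intensities in the authors' deposited table, and differences are E1 minus HCT116 on the log2(intensity + 32) scale with the standard error (SE) of a limma fit over all 11963 genes. That scale understates differences at low signal. The labels call the arrays triplicates without saying that they came from separate cultures, so the p-values measure only the spread between arrays, which may be technical. E1 arrays 2 and 3 stood apart: the ratio of the 3' to the 5' control probe set of GAPDH was 0.774 to 0.811 in HCT116, 0.803 for E1 array 1, and 34.1 and 71.9 for E1 arrays 2 and 3. The same ratio for ACTB was 0.930 to 1.00 in HCT116, 1.12 for E1 array 1, and 46.1 and 89.9 for E1 arrays 2 and 3. Results are therefore also given for E1 array 1 alone, and for E1 arrays 2 and 3 without it, each against the HCT116 arrays. A p with E1 array 1 alone rests on the spread of the 3 HCT116 arrays, and assumes that the single E1 array varies as they do. Subtracting array medians moved the median difference of all genes from -0.01 to 0.12, and differences near 0 are read against that shift.

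Of the 51 Wnt genes, 15, or 29.4%, read above the median gene of the array on each of the 6 arrays, against 40.2% of all genes. A further 8, or 15.7%, read below the lower quartile of all probe sets on each array, against 8.39% of all genes.

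None of the 51 Wnt genes differed between the lines at an adjusted p under 0.05 in limma over all genes, where 0.418% of all genes did. At an unadjusted p under 0.05 there were 8 Wnt genes, or 15.7%, against 15% of all genes. Of these, 3 were higher in E1, namely FZD1, FZD7 and TCF7L2, against 5.29% of all genes, and 5 were lower, namely WNT7B, WNT10B, FZD3, GSK3B and DVL1, against 9.7% of all genes. The balance of higher and lower genes over the whole array turned with the scaling. After quantile normalization 9.42% of all genes were higher and 6.73% lower, with 3 and 4 Wnt genes, and after subtraction of array medians 8.78% were higher and 7.08% lower, with 4 and 5 Wnt genes. When the probe sets of each gene were averaged, 0 Wnt genes were higher and 7 lower, against 16% of all genes in either direction. There FZD1 stood at 0.39, FZD7 at 0.78 and TCF7L2 at 0.34. The 3 arrays of each line did not overlap for 11 of the 51 genes, or 21.6%, against 18.8% of all genes. In the unscaled values these shares lay near those of the whole array. In RNA from whole cultures, fewer cells with a transcript and less of it per cell cannot be told apart. The median difference of the 51 genes was 0.02, beside -0.01 for all genes.

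**Figure D1:**
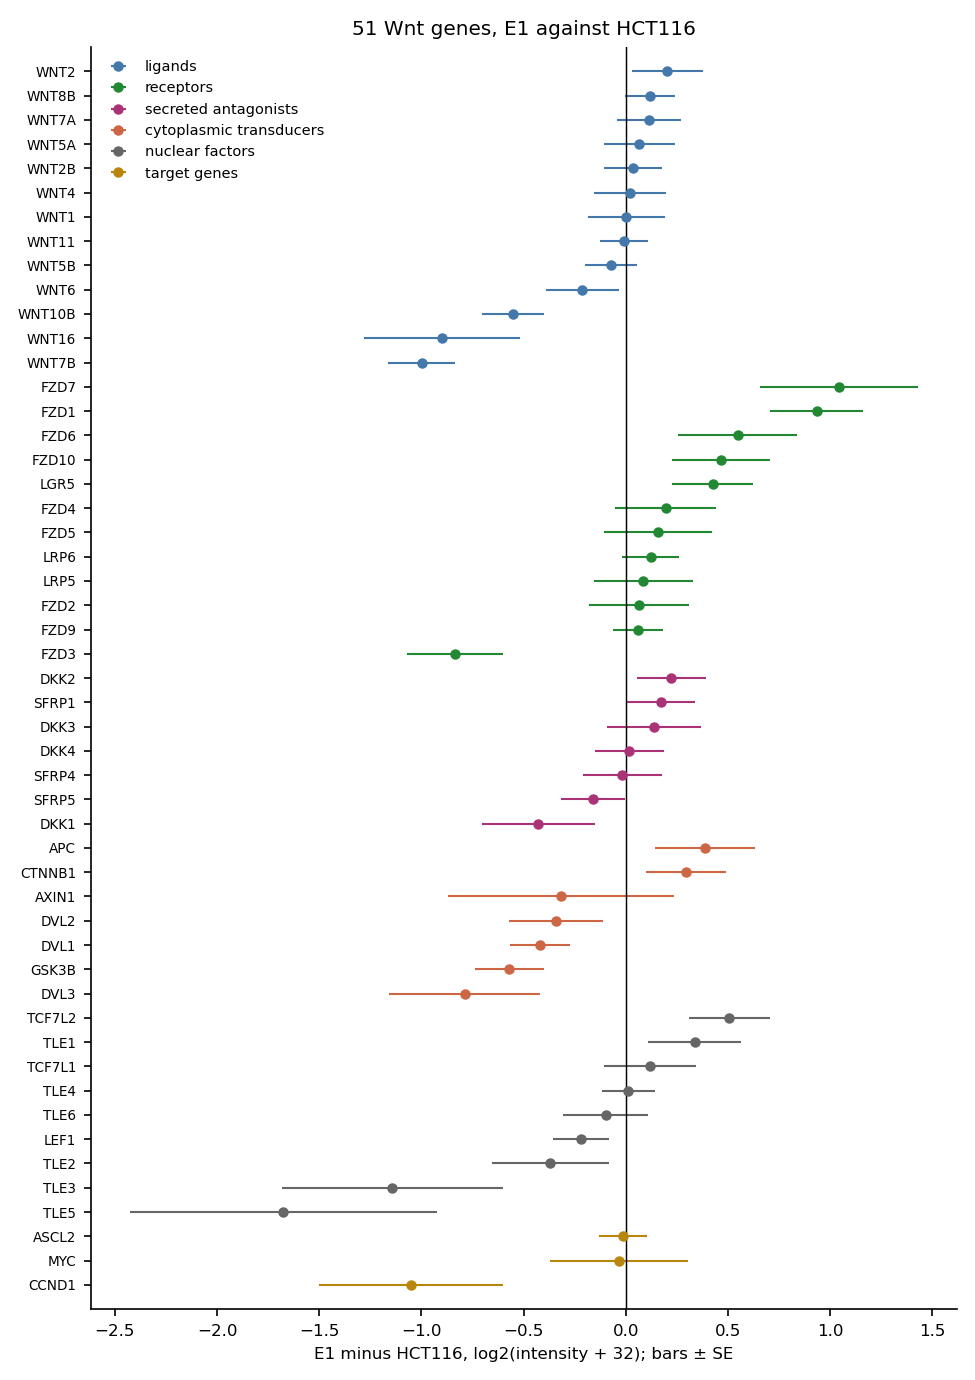
Difference between E1 and HCT116 for each of the 51 Wnt genes on the log2(intensity + 32) scale (x axis), grouped by role and ordered within a role; points are the limma estimates over 3 arrays per line and bars are ± 1 SE. On the probe sets used, 11 of the 12 receptors lie above 0. WNT7B and WNT16 lie lowest among the ligands, and the longest bars belong to TLE5, AXIN1 and TLE3.

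Among the ligands, 2 of 13 were lower at an unadjusted p under 0.05, and 0 were higher, against 9.7% and 5.29% of all genes. After quantile normalization 3 of 13 were lower, and after subtraction of array medians 2, against 6.73% and 7.08% of all genes. WNT7B, an epithelial ligand, had the smallest p of all 51 genes. It read 59.1, 72.1 and 45.8 on the HCT116 arrays and 8.91, 17.3 and 13.8 on the E1 arrays. Every E1 array lay far below every HCT116 array. The means were 59.0 ± 13.1 (SD, n = 3) and 13.3 ± 4.19 (SD, n = 3). The lower quartile of all probe sets was 16.3, 13.0 and 13.9 on the E1 arrays, so the E1 readings lay near or below it and no fold is given. The difference was -0.999 on the log2(intensity + 32) scale (SE 0.16, limma adjusted p = 0.0885). It was -1.14 with E1 array 1 alone and -0.93 with E1 arrays 2 and 3. In the latter setting WNT7B passed the test over all genes (limma adjusted p = 0.0307), and over all 16 alternatives its adjusted p ran from 0.0307 to 0.373.

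WNT10B, a ligand of the beta-catenin branch, was the other ligand lower at that threshold in the unscaled values. It read 97.5, 72.0 and 79.5 on the HCT116 arrays and 46.9, 38.4 and 53.7 on the E1 arrays, again without overlap. Its difference was -0.55 (SE 0.15, limma adjusted p = 0.216), close to the -0.54 of E1 array 1 alone. WNT1, its neighbour among protein-coding genes on chromosome 12 and the founding member of the family, stood at 0.00 (SE 0.19).

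WNT16 read 707, 653 and 508 on the HCT116 arrays and 192, 265 and 599 on the E1 arrays. E1 array 3 lay within the HCT116 range and the other two E1 arrays lay below it. Its difference was -0.90 (SE 0.38, limma adjusted p = 0.339), and -1.53 with E1 array 1 alone. WNT6 was the other ligand that read above the median gene of each array on all 6 arrays, with 258 ± 14.8 in HCT116 and 221 ± 49.8 in E1, a difference of -0.21 (SE 0.18). That signal was seen only on the WNT6 probe set used, as its other probe sets had mean signals of 1.98, 6.80 and 13.9. The other 9 ligands are WNT2, WNT2B, WNT4, WNT5A, WNT5B, WNT7A, WNT8B, WNT11 and WNT1, with differences from -0.07 to 0.20. Of these, WNT5A, WNT5B, WNT8B and WNT11 read below the lower quartile of all probe sets on each of the 6 arrays. WNT5A and WNT11 are known for signalling that does not pass through beta-catenin. Low signal on these probe sets gives no order between the lines, and no transcript is called absent.

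Of the 12 receptors, 11 had a positive difference, as they did after quantile normalization and after subtraction of array medians, with medians of 0.18, 0.32 and 0.31. Of all genes 49.1%, 56.2% and 65.5% were positive in these settings. With E1 array 1 alone 9 of 12 receptors were positive, and without it 9 of 12, against 43.6% and 52.2% of all genes. These counts rest on the probe set that stood for each gene. The second probe sets of FZD1, FZD5, LGR5 and LRP6 stood at -0.16, -0.11, -0.04 and -0.16, and that of FZD7 at 0.51. Their mean signals were 42.5, 5.31, 6.64 and 19.1, and 142 for FZD7. FZD1, a Frizzled receptor, read 92.9, 44.0 and 87.9 on the HCT116 arrays and 146, 166 and 193 on the E1 arrays. All E1 arrays lay above all HCT116 arrays. The means were 75.0 ± 26.9 and 168 ± 23.4 (SD, n = 3), and the difference was 0.93 (SE 0.23, limma adjusted p = 0.179). It was 0.77 with E1 array 1 alone and 1.02 with E1 arrays 2 and 3. A second FZD1 probe set stood at -0.16 (SE 0.32), with a mean of 47.0 ± 25.01 in HCT116 and 38.0 ± 21.0 in E1, so the difference was seen on 1 of the 2 probe sets.

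FZD7, a Frizzled receptor studied in intestinal stem cells and colon cancer, read 161, 129 and 109 on the HCT116 arrays and 223, 205 and 599 on the E1 arrays. The lines did not overlap, and E1 array 3 stood far above the other two. The difference was 1.04 (SE 0.39, limma adjusted p = 0.300), and 0.64 with E1 array 1 alone. Its second probe set stood at 0.51 (SE 0.32). FZD6, which also read above the median gene on all arrays, had 414 ± 128 in HCT116 and 624 ± 210.0 in E1, a difference of 0.55 (SE 0.29) and 0.20 with E1 array 1 alone.

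FZD3, known for its role in axon guidance, was the receptor with a negative difference. It read 160, 86.2 and 77.5 on the HCT116 arrays and 38.0, 51.2 and 43.0 on the E1 arrays. The E1 arrays were close together and below all HCT116 arrays. The difference was -0.84 (SE 0.24, limma adjusted p = 0.218), with -0.95 for E1 array 1 alone and -0.78 for E1 arrays 2 and 3.

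LGR5 is the receptor for R-spondins that marks crypt stem cells. It read 3.63, 2.25 and 4.59 on the HCT116 arrays and 30.1, 6.48 and 13.3 on the E1 arrays, so the lines did not overlap but all values were low. The difference was 0.42 (SE 0.20, limma adjusted p = 0.378), and a second probe set stood at -0.04 (SE 0.20). FZD10 read 3.90 to 6.91 on the HCT116 arrays and 4.07, 34.9 and 24.6 on the E1 arrays, high on E1 arrays 2 and 3 and within the HCT116 range on E1 array 1. The co-receptors LRP5 and LRP6 stood at 0.09 (SE 0.24) and 0.12 (SE 0.14), and FZD2, FZD4, FZD5 and FZD9 between 0.06 and 0.20.

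**Figure D2:**
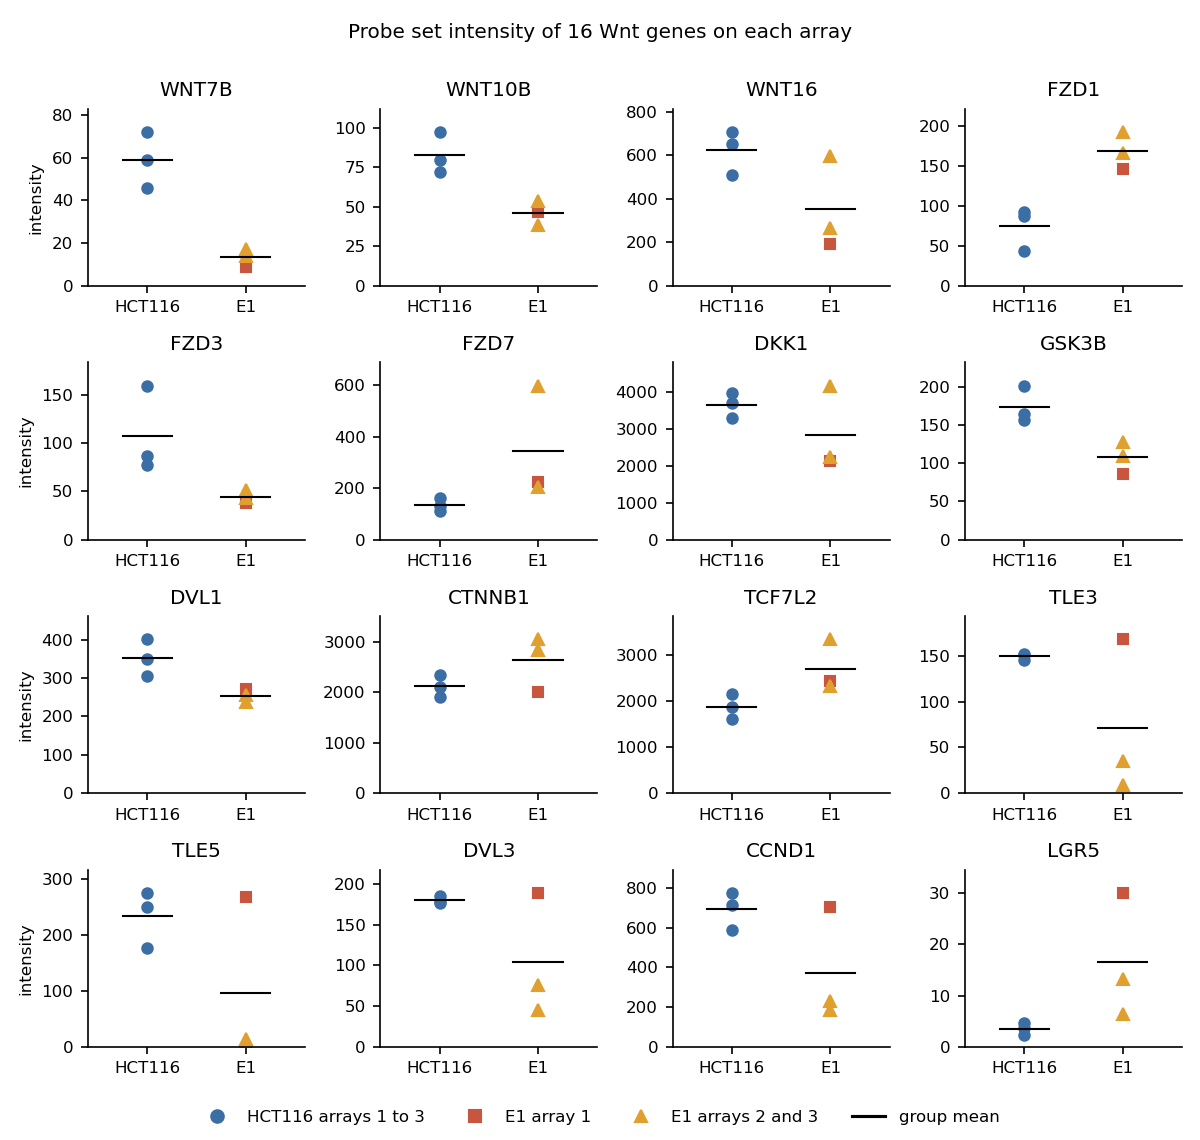
Linear probe set intensity (y axes, each starting at 0 with its own scale) of 16 Wnt genes on the 3 HCT116 arrays (blue circles), E1 array 1 (red square) and E1 arrays 2 and 3 (yellow triangles), with the group mean as a black line. In WNT7B, WNT10B, FZD1, FZD3, GSK3B and DVL1 all 3 E1 arrays lie to one side of HCT116, whereas in TLE3, TLE5, DVL3 and CCND1 only the triangles lie below the HCT116 arrays.

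The secreted antagonists belong to families known for blocking Wnt signalling outside the cell, though not every member need do so. DKK1 binds the LRP co-receptors, and SFRP proteins bind the ligands. None of 7 reached an unadjusted p under 0.05 in limma, against 15% of all genes. DKK1, itself known as a target gene of beta-catenin and TCF factors, was the 1 antagonist that read above the median gene on all 6 arrays. It read 3314, 3976 and 3723 on the HCT116 arrays and 2128, 2236 and 4188 on the E1 arrays. E1 arrays 1 and 2 lay below HCT116 and E1 array 3 above it. The difference was -0.43 (SE 0.28, limma adjusted p = 0.519), with a 95% interval from -1.09 to 0.23. DKK2, DKK3, DKK4, SFRP1, SFRP4 and SFRP5 had means between 3.02 and 57.5 in either line and differences from -0.16 to 0.22. SFRP1 read 46.9 ± 5.55 in HCT116 and 57.5 ± 15.2 in E1.

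The promoter of DKK1 is shown because it is 1 of the 2 members' promoters that held the TCF and LEF core motif. The motif was searched as CTTTGAA or CTTTGAT on both strands in RefSeq promoter windows of build GRCh38.p14, from 250 bases before to 50 after the start. Windows were found for 34 of the 51 genes, 45 windows in all, and 2 windows held a match, or 4.44%, against 6.86% of all 35116 windows. The other match was in TLE4, a Groucho-type corepressor. The lines below give the 250 bases before the DKK1 start, chr10:52314031-52314280, plus strand, and 87 bases around the TLE4 match, chr9:79573023-79573109, plus strand, 5′ to 3′ with the motif in capitals.
DKK1: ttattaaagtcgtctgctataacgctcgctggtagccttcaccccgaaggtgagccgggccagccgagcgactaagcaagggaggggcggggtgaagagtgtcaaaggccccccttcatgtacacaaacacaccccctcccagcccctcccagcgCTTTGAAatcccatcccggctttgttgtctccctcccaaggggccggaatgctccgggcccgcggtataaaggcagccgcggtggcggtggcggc
TLE4: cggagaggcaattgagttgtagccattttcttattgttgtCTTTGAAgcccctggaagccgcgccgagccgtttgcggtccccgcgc
The motif begins 95 bases before the DKK1 start and 114 bases before the TLE4 start. TLE4 read between 8.91 and 16.9 on the 6 arrays, with a difference of 0.01 (SE 0.13). A match describes the letters in the window and not binding.

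Among the cytoplasmic transducers, 2 of 7 were lower at an unadjusted p under 0.05, against 9.7% of all genes. After quantile normalization and after subtraction of array medians 0 of 7 were, against 6.73% and 7.08% of all genes in limma, and 1 of 7 was with E1 array 1 alone. GSK3B, the kinase that phosphorylates beta-catenin, read 202, 156 and 165 on the HCT116 arrays and 85.8, 128 and 109 on the E1 arrays. Every E1 array lay below every HCT116 array. The difference was -0.57 (SE 0.17, limma adjusted p = 0.239), and it was -0.80 with E1 array 1 alone. DVL1, a Dishevelled protein that relays the receptor signal, read 349, 306 and 401 on the HCT116 arrays and 270, 254 and 237 on the E1 arrays. Its difference was -0.42 (SE 0.15, limma adjusted p = 0.284), without overlap, and E1 array 1 by itself gave -0.34.

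CTNNB1 read 2108, 1901 and 2340 on the HCT116 arrays and 2013, 2829 and 3052 on the E1 arrays. E1 array 1 lay within the HCT116 range and E1 arrays 2 and 3 above it. The difference was 0.29 (SE 0.20, limma adjusted p = 0.536), with a 95% interval from -0.18 to 0.76, and -0.07 with E1 array 1 alone. APC, the scaffold of the destruction complex, stood at 0.39 (SE 0.24) over the 3 E1 arrays but at -0.05 for the first of them. AXIN1, the other scaffold, read 51.6 to 108 on the HCT116 arrays and 157, 7.28 and 64.6 on the E1 arrays, so the E1 arrays lay above, below and within the HCT116 range. DVL2, another Dishevelled protein, read 355, 232 and 285 on the HCT116 arrays and 289, 217 and 167 on the E1 arrays, a difference of -0.34 (SE 0.23).

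Of the 9 nuclear factors 1, TCF7L2, had an unadjusted p under 0.05 in limma, against 15% of all genes. TCF7L2 encodes TCF4, the main partner of beta-catenin in colon epithelium. It read 2156, 1601 and 1878 on the HCT116 arrays and 2443, 2318 and 3341 on the E1 arrays. The lowest E1 array lay just above the highest HCT116 array. The difference was 0.51 (SE 0.20, limma adjusted p = 0.312), and 0.38 with E1 array 1 alone. Of its other 5 probe sets, 4 stood between 0.31 and 0.60. The fifth, with 248 ± 51.9 in HCT116 and 169 ± 35.4 in E1, stood at -0.48 (SE 0.20), and its E1 arrays lay below all HCT116 arrays. It was the 1 probe set of the 7 additional ones with a mean signal of at least 100 whose sign differed from that of the probe set used.

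TCF7L1, a mainly repressive TCF factor, stood at 0.12 (SE 0.23), with 0.60 for E1 array 1 by itself. LEF1, a TCF family member often switched on in colon cancer, read 12.9 to 21.5 on the HCT116 arrays and 7.50 to 12.6 on the E1 arrays, a difference of -0.22 (SE 0.14) at low signal. TLE1 stood at 0.34 (SE 0.23), but its other 2 probe sets stood at -0.40 (SE 0.16) and -0.54 (SE 0.30). TLE6 stood at -0.10 (SE 0.21).

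TLE5, known as AES, lacks the repeats with which the longer TLE corepressors act and can oppose them. It read 249, 275 and 177 on the HCT116 arrays and 267, 8.40 and 13.6 on the E1 arrays. E1 array 1 lay within the HCT116 range, and E1 arrays 2 and 3 were at a small part of it. TLE3, a full-length corepressor named after its values were seen, read 151, 145 and 152 on the HCT116 arrays and 168, 35.5 and 9.08 on the E1 arrays. TLE2, which lies next to TLE5 on chromosome 19, read 247, 213 and 207 on the HCT116 arrays and 277, 127 and 123 on the E1 arrays. In all 3 genes E1 array 1 did not fall below the lowest HCT116 array, while E1 arrays 2 and 3 did. With all arrays the differences were -1.68 (SE 0.75) for TLE5, -1.14 (SE 0.54) for TLE3 and -0.37 (SE 0.29) for TLE2. For E1 array 1 by itself they were 0.19, 0.14 and 0.28, and with E1 arrays 2 and 3 they were -2.61, -1.78 and -0.69, each called in limma over all genes (adjusted p = 0.00260, 0.0101 and 0.0418). The other probe sets of TLE3 did not all show the split. One read 64.9, 50.3 and 59.4 on the HCT116 arrays and 58.5, 62.5 and 51.4 on the E1 arrays, at -0.01 (SE 0.12) over the 3 E1 arrays, and leaving out the first of them gave -0.02. Another read 91.6, 82.3 and 64.3 on the HCT116 arrays and 81.8, 26.4 and 42.2 on the E1 arrays, at -0.49 (SE 0.26). The second TLE2 probe set read 88.8 to 133 on the HCT116 arrays and 172, 33.3 and 8.23 on the E1 arrays, with the same split.

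DVL3 and the target CCND1 showed the same split. DVL3 read 185, 177 and 179 on the HCT116 arrays and 189, 45.6 and 76.2 on the E1 arrays, a difference of -0.79 (SE 0.37) with all arrays, 0.06 with E1 array 1 alone and -1.21 with E1 arrays 2 and 3 (limma adjusted p = 0.0160). In all, 9 of the 51 genes, or 17.6%, had E1 arrays 2 and 3 below every HCT116 array while E1 array 1 was not, against 10.7% of all genes. The opposite split, with E1 arrays 2 and 3 above, held for 6 of the 51, or 11.8%, against 11.4% of all genes. Without E1 array 1, 7 Wnt genes were called, or 13.7%, against 8.97% of all genes. Lower in E1 were 6, against 7.33% of all genes, namely WNT7B, DVL3, TLE2, TLE3, TLE5 and CCND1. FZD10 was higher, against 1.64% of all genes. With E1 array 1 alone 0 Wnt genes were called in limma, where 0.0167% of all genes were, and 10 of 51 had an unadjusted p under 0.05, or 19.6%, against 11.5% of all genes. The 3' to 5' control ratio moved with this split, and its part in these values was not tested.

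**Figure D3:**
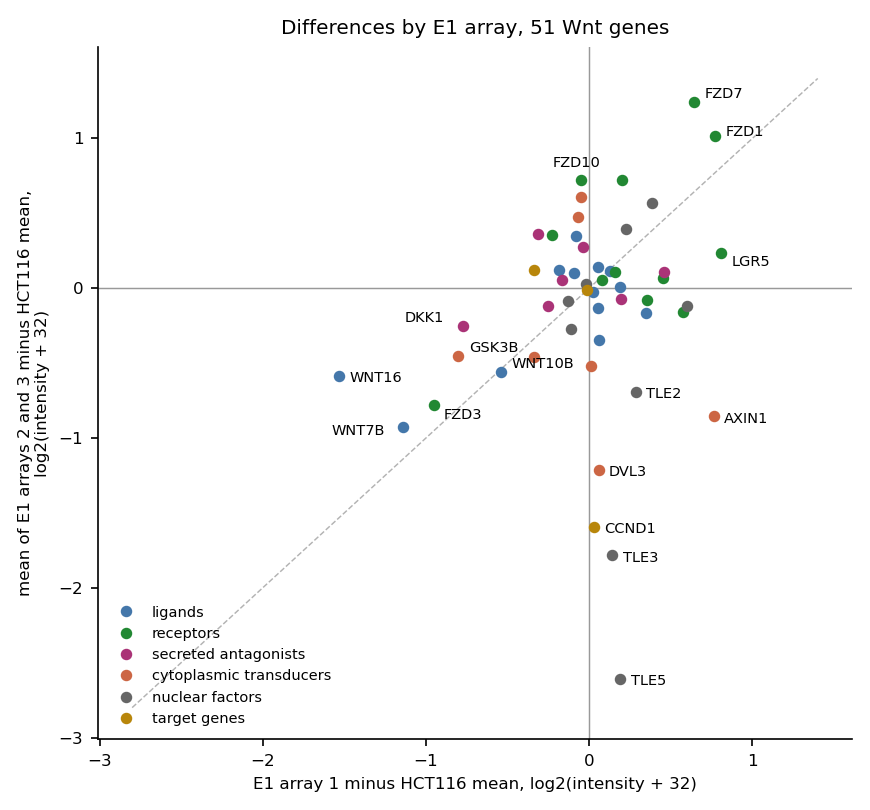
Difference of E1 array 1 from the HCT116 mean (x axis) against the difference of the mean of E1 arrays 2 and 3 from the HCT116 mean (y axis), both on the log2(intensity + 32) scale, for the 51 Wnt genes coloured by role; the dashed line marks equal values. WNT7B, FZD3 and WNT10B lie near the line, whereas TLE5, TLE3, CCND1 and DVL3 lie near 0 on the x axis and at -2.61 to -1.21 on the y axis.

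The targets were CCND1, MYC and ASCL2. CCND1 encodes cyclin D1, which drives entry into the cell cycle. The probe set that stood for CCND1 read 713, 590 and 775 on the HCT116 arrays and 703, 186 and 230 on the E1 arrays, with a difference of -1.05 (SE 0.45, limma adjusted p = 0.341) and 0.03 with E1 array 1 alone. A second CCND1 probe set read 489, 462 and 501 on the HCT116 arrays and 128, 180 and 90.1 on the E1 arrays. Here E1 array 1 was as low as the others, and the lines did not overlap. It fell from 484 ± 20.03 to 133 ± 45.2 (SD, n = 3), by -1.68 (SE 0.21), and was called in the limma fit over 19065 single probe sets (adjusted p = 0.0332), where 0.871% of all probe sets and 1 of the 89 Wnt probe sets were called, and 0.624% of all probe sets were called lower. With E1 array 1 alone it stood at -1.69 (limma adjusted p = 0.173), and over 15 alternatives it was called in 6, with an adjusted p from 0.0123 to 0.197. The call was lost without any 1 of the HCT116 arrays, at adjusted p of 0.188, 0.124 and 0.160, and without E1 array 2 or 3, at 0.0553 and 0.0757.

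MYC, the growth-promoting transcription factor, read 1782, 2886 and 1906 on the HCT116 arrays and 1688, 1602 and 3379 on the E1 arrays. The range of the E1 arrays enclosed that of the HCT116 arrays, with a difference of -0.03 (SE 0.34) and a 95% interval from -0.84 to 0.77. ASCL2, a transcription factor of crypt stem cells, read between 0.437 and 1.55 on the 6 arrays, at the bottom of the intensity range.

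**Figure D4:**
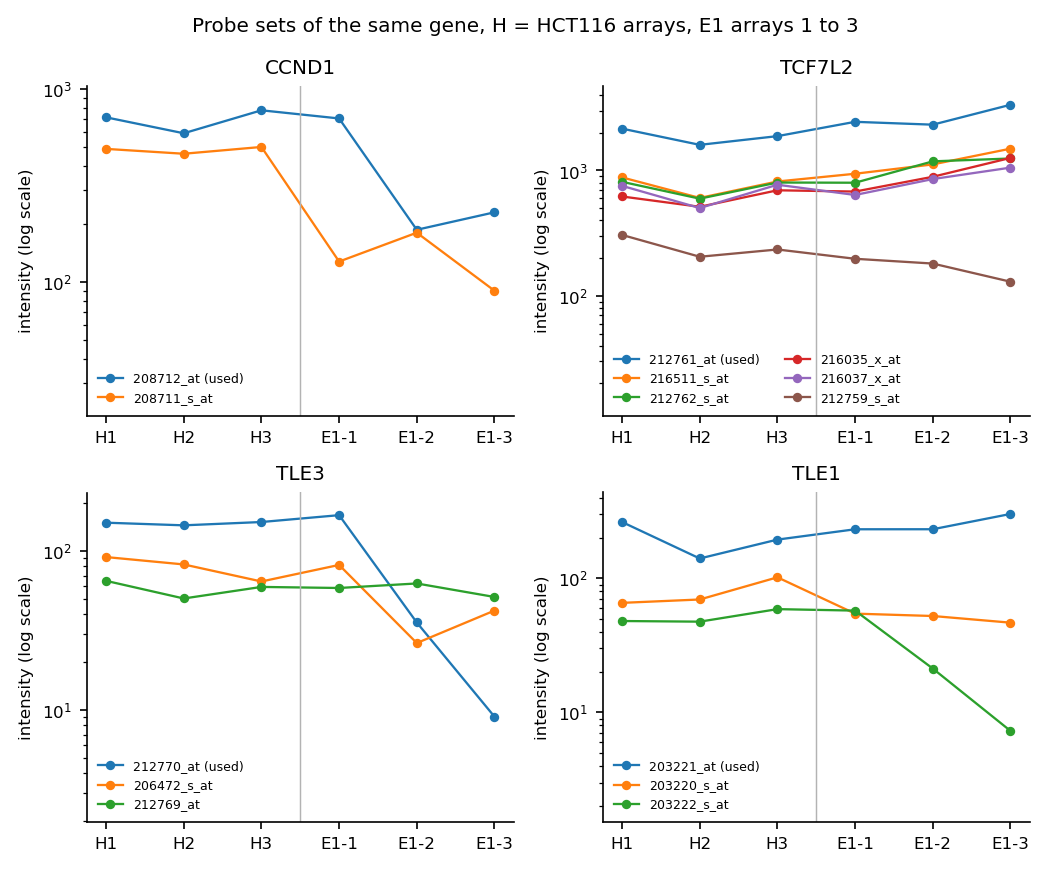
Intensity on each array (y axes, log scale) of the individual probe sets of CCND1, TCF7L2, TLE3 and TLE1; each line is 1 probe set, the vertical line separates the HCT116 arrays from the E1 arrays, and the probe set that stood for the gene is marked as used. The CCND1 probe sets differ on E1 array 1, at 703 and 128, and 1 of the 6 TCF7L2 probe sets runs opposite to the others.

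Of the 38 additional probe sets of members, 16 had the sign opposite to that of the probe set used, and all but 1 of these had a mean signal under 100. The second DVL2 probe set read 98.5, 49.8 and 65.9 on the HCT116 arrays and 37.6, 3.61 and 4.36 on the E1 arrays. It stood at -1.18 (SE 0.32, limma adjusted p = 0.167 over single probe sets), against -0.34 for the DVL2 probe set used. APC had a second probe set at 0.37 (SE 0.13), with 50.6 ± 9.74 in HCT116 and 74.7 ± 4.20 in E1, and there the lines did not overlap.

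Other genes of the pathway were taken from 6 lists of genes outside the rule, with 84 of 109 measured. Of these, 2 rose and 0 fell in limma over all genes, beside 0.217% and 0.201% of all genes, and both were reported Wnt targets. The lists were chosen with earlier results of these data known, so their counts are not independent of these data. SOX4, a transcription factor of crypt progenitors, read 950 to 1202 on the HCT116 arrays and 2407 to 3063 on the E1 arrays, a difference of 1.38 (SE 0.16, limma adjusted p = 0.0385). The growth factor BMP4 read 225 to 424 on the HCT116 arrays and 1229 to 1908 on the E1 arrays, at 2.10 (SE 0.27, limma adjusted p = 0.0418). SOX4 was called in 4 of 17 alternatives, with 0.89 when its probe sets were averaged, and BMP4 in 5 of 16. Both calls were lost without any 1 of the HCT116 arrays and without E1 array 2 or 3, with adjusted p of 0.0774 to 0.229 for SOX4 and 0.110 to 0.250 for BMP4.

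The counts of the reported targets carry the same limit. Among the 25 measured, 9 reached an unadjusted p under 0.05, 6 of them higher and 3 lower, against 5.29% and 9.7% of all genes. The list's median difference was 0.10. Both after quantile normalization and after subtraction of array medians 6 were higher and 2 lower, against the shares of all genes given above for these scalings. SOX9, a crypt transcription factor, stood at 1.403 (SE 0.21, limma adjusted p = 0.0706), reading 447 to 653 in HCT116 and 1246 to 1742 in E1. Of 17 kinases, ligases and regulators of the destruction complex, 0 were higher and 2 lower at that threshold: the phosphatase scaffold PPP2R1A and the kinase CSNK1D, at -2.06 (SE 0.80) and -0.75 (SE 0.29) with all arrays but -0.05 and -0.10 with E1 array 1 alone. After quantile normalization 1 of the 17 was higher and 0 lower in limma at that threshold, and after subtraction of array medians 0 were higher and 2 lower. The ubiquitin ligase component BTRC stood at -0.22 (SE 0.13). Of 14 nuclear cofactors 1 was higher, the chromatin remodeller SMARCA4 at 0.48 (SE 0.19), and 2 were lower, against 5.29% and 9.7% of all genes. After quantile normalization 1 was higher and 2 lower, and after subtraction of array medians 1 and 1. CHD8, a remodeller that can restrain beta-catenin, read 232 to 362 in HCT116 and 60.8 to 164 in E1, a difference of -1.31 (SE 0.30, limma adjusted p = 0.161) and -0.73 with E1 array 1 alone. PYGO1, a beta-catenin cofactor, stood at -0.56 (SE 0.17).

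Of 16 planar polarity and non-canonical components, 3 reached an unadjusted p under 0.05, all higher in E1, against 5.29% of all genes higher and 9.7% lower. After quantile normalization 5 were higher and after subtraction of array medians 4, against 9.42% and 8.78% of all genes. DAAM1, a formin that binds Dishevelled, read 67.7 to 76.1 in HCT116 and 106 to 127 in E1, at 0.51 (SE 0.13, limma adjusted p = 0.188), and at 0.49 for E1 array 1 by itself. The cadherin CELSR1 stood at 0.76 (SE 0.26) and the phospholipase PLCB1 at 0.80 (SE 0.32). For PLCB1 the lines overlapped, at 88.8 to 166 in HCT116 and 156 to 364 in E1. Of 6 measured co-receptors and regulators of receptor turnover, 1 was higher and 0 lower at that threshold, against 5.29% and 9.7% of all genes. It was the Wnt receptor kinase ROR2 at 0.69 (SE 0.24), while its relative ROR1 stood at -0.79 (SE 0.33) and LGR4 at 0.48 (SE 0.25). After quantile normalization and after subtraction of array medians 2 of the 6 were higher. Of 6 secretion factors and extracellular modulators, 0 reached an unadjusted p under 0.05 in limma, against 15% of all genes. WLS, the carrier that takes Wnt proteins to the cell surface, stood at 0.09 (SE 0.26), FRZB, a secreted antagonist, at 0.21 (SE 0.22) and WIF1, another, at -0.12 (SE 0.16).

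Markers of epithelium and of other cell types were read beside these values. Both lines had high signal for EPCAM, at 1950 ± 62.5 in HCT116 and 2690 ± 897 in E1, and for CDH1, at 705 ± 227 and 716 ± 211. Of 10 epithelial markers 2 were lower at an unadjusted p under 0.05, against 9.7% of all genes. The summed intensity of the 10 was 17202 to 19644 in HCT116 and 11675 to 15286 in E1, most of it from KRT8, KRT18 and KRT19. One of the 2, KRT8, read 2862, 372 and 103 on the E1 arrays, low on the same arrays as TLE5 and TLE3. The other, KRT18, read 7847 ± 537 in HCT116 and 5918 ± 323 in E1. CLDN3 read 55.3 to 164 on the HCT116 arrays and 248, 0.784 and 2.86 on the E1 arrays. Other markers had low signal. Over all arrays VIL1 read 2.18 to 18.7, the colonocyte factor CDX2 4.53 to 22.5 and KRT20 22.1 to 116. The summed intensity of 9 fibroblast markers was 390 to 450 in HCT116 and 313 to 451 in E1, that of 8 leukocyte markers 260 to 352 and 263 to 292, and that of 6 endothelial markers 114 to 150.05 and 114 to 168. Of the fibroblast, leukocyte and endothelial markers 3, 2 and 1 read below the lower quartile of all probe sets on each of the 6 arrays. Members of each list differed widely in signal. LUM read at most 2.96, against 78.0 to 97.4 for DCN, 61.1 to 90.9 for THY1 and 88.6 to 183 for COL1A1. PTPRC read at most 15.7, against 60.2 to 132 for CD3E and 37.7 to 74.6 for ITGAM. CDH5 read at most 3.25, against 39.7 to 63.2 for PECAM1. No member of these 3 lists was called in limma, where 0.418% of all genes were. An unadjusted p under 0.05 was reached by 1, VWF at 0.36 (SE 0.14), against 15% of all genes.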

How the data were processed

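The table the authors deposited holds a linear intensity for 22283 probe sets on 6 arrays. How probes were summarized, background-corrected and scaled is not given in the sources used. Per the labels' protocols, biotin-labelled material was made from Trizol-extracted total RNA. Values were transformed to log2(intensity + 32) without further normalization. Not tested were 68 control probe sets, 1043 with several symbols and 2107 without a symbol. The platform annotation gave the symbols, and all 51 members matched the RefSeq table of assembly GRCh38.p14.

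E1 was tested against HCT116 with lmFit and eBayes of limma 3.58.1 (R 4.3.3), two-sided, with Benjamini-Hochberg adjustment over all genes and a threshold of 0.05. The number of arrays limits the precision. Simulated data with 200 altered genes among 11963 returned 35.1% of true differences of 1 and 79.2% of those of 2 (log2). Alternatives were quantile normalization, median subtraction, offsets of 1 and 100, a filter on the lowest 40%, averaging a gene's probe sets, no probe sets ending in _x_at or _s_at, a trended robust fit, a replicate block, a GAPDH 3' to 5' covariate, E1 array 1 alone, and leaving out each array.

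The members and lists were chosen with earlier results of these data known. Genes named with full values were those with an adjusted or unadjusted p under 0.05, the largest difference in each role among genes above the median of all gene means, genes with a called probe set or with probe sets of opposite sign at a mean signal of at least 100, and CTNNB1, APC and LGR5. From each pathway list every called gene and up to 3 with the smallest p were named. Other members were named so that each is accounted for, and TLE3, TLE2 and FZD10 were singled out after their values were seen.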

Additional observations from a re-analysis of the deposited data

How the results depend on the processing

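The count of 0 called Wnt genes was the same in the 11 alternatives other than leaving out 1 array, and ran from 0 to 7 when 1 array was left out; the 7 came without E1 array 1. Of all genes 0.0167% to 8.97% were called when 1 array was left out. The count at an unadjusted p under 0.05 then ran from 5 to 16, beside 8.7% to 24.5% of all genes. The count of 1 called Wnt probe set became 0 with an offset of 1, with the GAPDH covariate and with the replicate block. It ran from 0 to 11 when 1 array was left out, beside 0.0262% to 11.4% of all probe sets. The count of 2 called genes of the pathway lists became 3 after subtraction of array medians and with the lowest 40% left out. It became 1 with the mean of probe sets. It was 0 with quantile normalization, offsets of 1 and 100, the GAPDH covariate, the replicate block and the removal of _x_at and _s_at probe sets. When 1 array was left out it ran from 0 to 6. The settings listed for these last 2 counts leave out E1 array 1 alone, which has no spread of its own. There SOX4 stood at 1.49, BMP4 at 2.47 and the second CCND1 probe set at -1.69. With E1 array 1 alone 20 of the 51 members changed sign. Among the 17 members named with full values these were APC at -0.053, CTNNB1 at -0.066, CCND1 at 0.030, DVL3 at 0.058, TLE3 at 0.14 and TLE5 at 0.19. The GAPDH ratio sets E1 arrays 2 and 3 apart from all other arrays, so a fit with it as a covariate returns values close to those of E1 array 1 alone by construction. Among the 17, the sign reversed there for APC at -0.040, CTNNB1 at -0.068, TLE3 at 0.18 and TLE5 at 0.14, and on removal of _x_at and _s_at probe sets for APC at -0.072. The cause was not tested.

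With the replicate number as a block 0 Wnt genes were called and 7 had an unadjusted p under 0.05 in limma, against 0.0167% and 12.2% of all genes. Deviations of same-numbered arrays from their line's mean correlated at -0.06, -0.36 and -0.12 across genes, so the numbers did not pair the arrays, and 0 arrays correlated best with their own number. With 3 arrays per line and a spread that holds the split of the E1 arrays, differences of about 1 (log2) were mostly not recovered in simulation. Low signals of many ligands and antagonists limit any comparison of them.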
